A study of Mus musculus with 24 samples.

Results

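The 10 genes described here encode a transporter and 9 enzymes through which activated macrophages handle arginine, itaconate, tryptophan and cholesterol: Slc7a2, Arg1, Arg2, Nos2, Ass1, Odc1, Acod1, Ido1, Kynu and Ch25h. They are 10 of the 41388 Ensembl genes in the count table, each matched by symbol to 1 identifier. They were chosen by name with the differences between the hearts already known, Arg1 and Acod1 being among the strongest inductions. All comparisons of EAM with control hearts, and the counts of members past the study's limits in them, are therefore descriptions that support nothing. No p-value of a single member is printed for them, and counts of members past a threshold stand beside those of all genes. Control hearts at different days are the comparison that the choice did not use, and adjusted p-values are given there. RNA was measured in a portion of the heart of 24 male wild type Balb/c mice (BALB/cAnNCrl in the study's methods), immunized at 8 to 10 weeks of age and sampled at day 10, 15 or 21 (D10, D15, D21). In experimental autoimmune myocarditis (EAM, 4 mice at each day), mice were injected on days 0 and 7 with 100 µg of a cardiac myosin heavy chain peptide in supplemented complete Freund's adjuvant, with pertussis toxin (PTX) on day 0. Control mice (4 at each day) received the same adjuvant and PTX, with PBS in place of the peptide, so both groups carry a mycobacterial adjuvant and a toxin. Hearts for RNA were chosen by the study to show inflammation as far as possible, and naïve hearts were not analysed here. At D10, the paper found raised CD45-positive cells or raised cardiac troponin I in no EAM mouse.

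Macrophages at a site of inflammation compete over arginine. Inducible nitric oxide synthase (Nos2) turns it into nitric oxide and citrulline, arginase turns it into urea and ornithine, and ornithine decarboxylase (Odc1) starts polyamine synthesis from ornithine. Textbooks place Nos2 with classical activation by interferon gamma and bacterial products, and Arg1 with alternative activation by interleukin 4 and 13, although hypoxia and other signals can also induce Arg1. Acod1 makes itaconate from a Krebs cycle intermediate after Toll-like receptor or interferon signals, Ido1 and Kynu break down tryptophan along the kynurenine pathway, and Ch25h makes 25-hydroxycholesterol, an oxysterol that restrains sterol synthesis and is a precursor of a ligand that guides leucocytes.

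The 24 libraries held between 15814863 and 24980864 counts, and a count of 3, the most that a count of 0 allows, corresponded to between 0.105 and 0.20 CPM in the single libraries, where CPM is read counts per 1000000 reads of the library total after TMM scaling. In bulk hearts, fewer cells of a type and less RNA per cell cannot be told apart. The summed level of 15 macrophage and monocyte markers, led by Lyz2, was between 628 and 1559 CPM in control hearts, between 1206 and 3625 CPM in D10 EAM, between 4171 and 5878 CPM in D15 EAM and between 1655 and 5471 CPM in D21 EAM hearts. All 15 markers were detected in every group. The 8 cardiomyocyte markers, led by Myh6, summed to at least 28380 CPM in control hearts and to between 7869 and 20350 CPM in D15 EAM hearts. The share of mitochondrial reads was also lower in the latter, at 3.19% to 4.31%, than in any control of that day, at 6.10% to 7.14%. The summed level of 10 neutrophil markers, led by S100a9, was between 13.7 and 282 CPM in control hearts and between 639.8 and 1209 CPM in D15 EAM hearts. In D21 EAM hearts the neutrophil markers summed to between 134.6 and 471.7 CPM and the cardiomyocyte markers to between 14110 and 32320 CPM. The part of these cells, and of the mitochondrial share, in the differences below was not tested. The 4 libraries of D21 EAM carry another library code than the other 20, so at D21 the code and the disease cannot be told apart.

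A gene was called where it passed an FDR of 0.01 and a change of at least 2-fold, the limits of the study. The test was the quasi-likelihood test of edgeR, adjusted by Benjamini-Hochberg over all genes with at least 10 reads in 4 samples. The paper, with the same limits, an earlier edgeR version and no test named, reports genes induced at D10. Its calls at D10 thus differ from those here. At D10, 0 of the 7 members that passed the filter on low counts were called, against 0% of all 15029 genes tested. Without adjustment, 4 of the 7 had p under 0.05, beside 2292 of the 15029 genes. DESeq2 and the likelihood ratio test each called 1 of them, beside 0.346% and 0.313% of all genes, and limma-voom 0, beside 0%. At D15, 9 of 10 were called, all higher in EAM, beside 31% of all genes called in either direction and 18.1% called higher. At D21, 4 of the 9 that passed the filter were called, all higher, beside 5.29% of all genes in either direction and 4.13% higher. Limma-voom called 0 of these 4, beside 1.41% of all genes, and a block for the replicate number left 3, beside 4.83%. Leaving out any 1 control heart or EAM replicate 1 or 2 left 0, beside 0% to 0.265%. These counts and shares describe how the genes were chosen and nothing is read from them. The median log2 fold change was 2.42 over the 7 members at D10, 5.32 over the 10 at D15 and 3.36 over the 9 at D21, beside medians over all genes tested of -0.01, 0.02 and -0.01. Members that did not pass the filter at D10 were Arg1, Ido1 and Kynu, and at D21 Kynu. The EAM and control hearts did not overlap for 2 of the 10 members at D10, all 10 at D15 and 6 at D21. Over all genes tested, 4.41%, 34.5% and 17.8% had every EAM heart above every control heart at the 3 days.

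**Figure D1:**
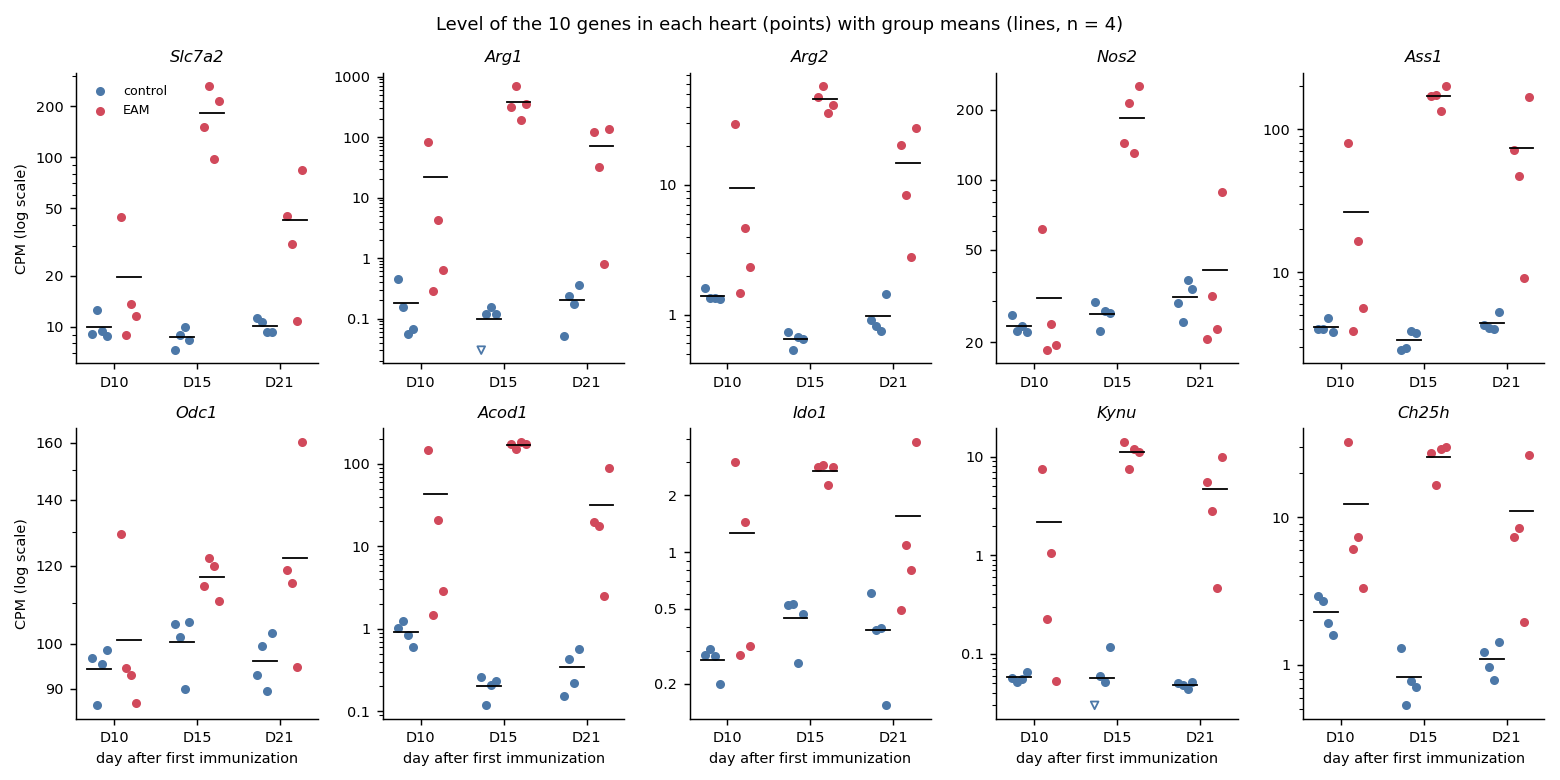
CPM of each of the 10 genes in the 24 hearts, on a log axis with its own range in each panel. Points are hearts, lines are means of 4 and open triangles are hearts with 0 reads. The 4 D15 EAM hearts sit above every D15 control heart in all 10 panels, and 1 D10 EAM heart sits far above the other 3 in most of them.

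Slc7a2 encodes the cationic amino acid transporter CAT2, which carries arginine into macrophages (GRCm38 chr8:40862396-40922308, plus strand). The D15 EAM hearts held 150.5, 261, 97.7 and 215 CPM and the D15 control hearts between 7.29 and 10.0 CPM. Every D15 EAM heart was thus far above the controls, with a fitted log2 fold change of 4.42 (SE 0.31). Here and below, SE is the size of the log2 fold change divided by the square root of the F statistic of its test. It is not an error taken from the fit itself. The D10 EAM hearts held 44.7, 9.01, 13.6 and 11.6 CPM beside 8.79 to 12.5 CPM in their controls, and the D21 EAM hearts 45.2, 30.7, 10.8 and 84.4 CPM beside 9.32 to 11.3 CPM. At D10 and D21 the groups overlapped, since 1 or more EAM hearts lay within the control range. The log2 fold change was 0.98 (SE 0.48) at D10 and 2.11 (SE 0.53) at D21. Exons of Slc7a2 overlap those of a long non-coding RNA on the other strand, and whether the counting used strand is not stated, so reads of the 2 cannot be told apart.

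Arg1 encodes cytosolic arginase, which removes arginine as ornithine and urea (chr10:24915221-24927484, minus strand). It was close to absent from control hearts, with 0 to 8 reads in each of the 12. The D15 control hearts held 0, 0.118, 0.155 and 0.118 CPM, and the D15 EAM hearts 309, 687, 189 and 346 CPM. The heart with 0 reads allows up to 0.156 CPM. The summed reads, 40491 in EAM and 7 in control hearts, gave a depth-scaled ratio of 4098 (exact 95% counting interval 1989 to 10190), and the fitted log2 fold change of 11.91 (SE 0.65) was the highest of all 15693 genes tested at D15. At D21, levels in EAM hearts were 120.3, 31.7, 0.802 and 134 CPM, beside 0.0508 to 0.358 CPM in controls. Replicate 3 was thus within a few reads of the controls while replicates 1 and 4 were far above it and below the lowest D15 EAM heart. The log2 fold change at D21 was 8.45 (SE 1.53), again the highest of the 15266 genes tested. Levels in D10 EAM hearts were 82.9, 0.283, 4.29 and 0.633 CPM and the D10 controls 0.0562 to 0.457 CPM. Replicate 1 alone carried most of the D10 reads, and too few hearts had 10 reads for a fit.

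Arg2 encodes the mitochondrial arginase (chr12:79130777-79156301, plus strand). Arg2 was at 48.1, 57.6, 36.0 and 41.4 CPM in the D15 EAM hearts and at 0.531 to 0.729 CPM in their controls, a log2 fold change of 6.17 (SE 0.20). In D21 EAM hearts it was at 20.3, 8.44, 2.81 and 27.4 CPM beside 0.744 to 1.43 CPM in controls, a log2 fold change of 3.95 (SE 0.69). At both days the lowest EAM heart was above the highest control heart. In D10 EAM hearts it was at 29.6, 1.47, 4.68 and 2.32 CPM beside 1.32 to 1.60 CPM, and replicate 2 lay within the control range. Exons of Arg2 overlap an antisense gene, with the same limit on strand. Per kilobase of exon, where levels of different genes can be compared, Arg1 was below Arg2 in every control heart, with a ratio of at most 0.188. In the D15 EAM hearts the order was turned, with Arg1 between 3.37 and 7.64 times the level of Arg2.

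Nos2 encodes inducible nitric oxide synthase (chr11:78920787-78960254, plus strand). It stood apart from the arginases in its level in control hearts, between 22.2 and 37.2 CPM in all 12. Nos2 reached 144, 213, 130 and 252 CPM in the D15 EAM hearts, and the D15 controls held 29.8, 22.3, 27.3 and 26.7 CPM, a log2 fold change of 2.84 (SE 0.22). The groups were well apart, and the 7.14-fold change was far smaller than that of Arg1. At D21 the EAM hearts held 20.7, 31.4, 22.8 and 88.6 CPM and the controls 29.5, 24.3, 37.2 and 33.9 CPM. Of the EAM hearts, 2 were below all 4 controls, 1 was among them and replicate 4 was above them. The log2 fold change at D21 was 0.42 (SE 0.46), and -0.31 without replicate 4. Nos2 in D10 EAM hearts was at 61.5, 18.5, 23.8 and 19.5 CPM, with replicate 1 above and the others within or below the 22.2 to 26.3 CPM of the controls. The log2 fold change at D10 was 0.38 (SE 0.37), and -0.20 without replicate 1.

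Within single hearts, the level per kilobase of Arg1 relative to Nos2 was 0.0345 or less in all 12 control hearts. It was 4.24, 6.39, 2.89 and 2.72 in the D15 EAM hearts and 11.5, 2.0, 0.0697 and 2.99 in the D21 EAM hearts. In 7 of these 8 hearts Arg1 was thus above Nos2, and the highest ratio was in D21 EAM replicate 1, where Nos2 was below every control of that day. In the D10 EAM hearts the ratio was 2.67 in replicate 1 and at most 0.356 in the other 3.

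Ass1 encodes argininosuccinate synthase, which recycles citrulline toward arginine (chr2:31470207-31520672, plus strand). Ass1 reached 170.0, 173, 133 and 198 CPM in the D15 EAM hearts, and the D15 controls held 2.87 to 3.88 CPM, a log2 fold change of 5.68 (SE 0.17). The 4 EAM hearts were close to each other, and all were far above the controls. Ass1 in D21 EAM hearts was at 71.1, 47.1, 9.15 and 166 CPM beside 4.03 to 5.27 CPM in controls, a log2 fold change of 4.09 (SE 0.76). Each was above all controls, and replicate 4 was within the D15 range. With the replicate number as a block, the D21 change of Ass1 was 3.55 on the log2 scale and was no longer called, while Arg1, Arg2 and Acod1 were. Ass1 in D10 EAM hearts was at 79.4, 3.91, 16.5 and 5.65 CPM beside 3.83 to 4.77 CPM, so replicate 2 lay within the control range.

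Odc1, the ornithine decarboxylase gene at the head of polyamine synthesis (chr12:17544794-17551505, plus strand), was the one member not called at any day. Its level was between 86.6 and 105 CPM in the 12 control hearts and between 87.2 and 160 CPM in the 12 EAM hearts. Odc1 in D15 EAM hearts was at 115, 122, 120 and 111 CPM, all above the 90.0 to 105 CPM of the controls, with a log2 fold change of 0.26 (SE 0.07). A change of this size is far under the 2-fold limit. Odc1 was at 129, 94.5, 92.9 and 87.2 CPM in D10 EAM hearts beside 86.6 to 98.7 CPM and at 119, 115, 94.7 and 160 CPM in D21 EAM hearts beside 89.6 to 103 CPM, overlapping the controls at both days. Scaling by total counts in place of TMM moved the median log2 fold change of all genes at D15 from 0.02 to 0.17 and that of Odc1 to 0.41. Per kilobase, Odc1 was the most abundant member in each control group, at between 27.7 and 29.5 CPM per kb, and at D15 its mean in EAM hearts was exceeded by those of Arg1, Ass1, Acod1 and Nos2. Nos2 was above it in 2 of these 4 hearts.

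**Figure D2:**
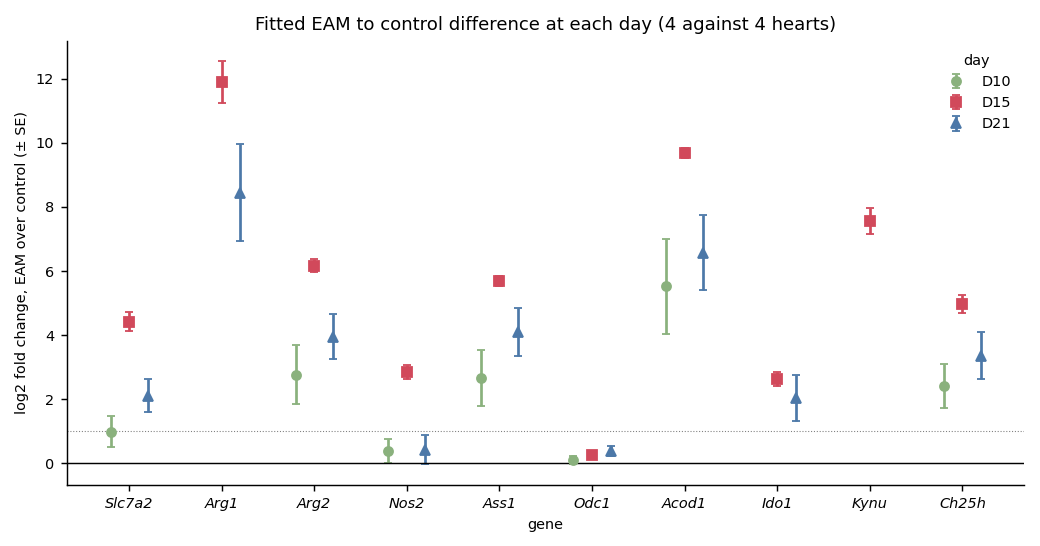
Fitted log2 fold change of EAM over control hearts at each day, with the SE derived from its test, for the members that passed the filter on low counts. The dotted line marks 2-fold. Arg1 and Acod1 are highest at D15, at 11.91 and 9.69, Odc1 lies near 0 at all 3 days, and Nos2 is above 2-fold at D15 alone.

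Acod1 encodes aconitate decarboxylase, the source of itaconate (chr14:103046977-103056573, plus strand). Acod1 in D15 EAM hearts was at 173, 152, 186 and 174 CPM, a narrow range, and in the D15 controls at 0.260, 0.118, 0.207 and 0.236 CPM. The summed reads, 17418 and 15, gave a ratio of 823 (exact 95% counting interval 499 to 1470), and the fitted log2 fold change was 9.69 (SE 0.15). Acod1 in D21 EAM hearts was at 19.8, 17.4, 2.47 and 87.9 CPM beside 0.153 to 0.563 CPM in controls, a log2 fold change of 6.58 (SE 1.16). All 4 were above the controls, and all 4 were below every D15 EAM heart. Acod1 in D10 EAM hearts was at 148, 1.47, 20.7 and 2.85 CPM beside 0.595 to 1.23 CPM in controls. Acod1 was thus one of the 2 members whose D10 EAM hearts were all above their controls, and replicate 1 was already near the D15 level. The log2 fold change at D10 was 5.52 (SE 1.48) and 3.13 without replicate 1.

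The ratio of Acod1 to Arg1 per kilobase was also taken in single hearts. Acod1 was between 1.52 and 4.42 times the level of Arg1 in the 4 D10 EAM hearts, and between 0.187 and 0.834 times in the 4 D15 EAM hearts. Control hearts, with 8 or fewer Arg1 reads each, had ratios of 1.91 to 12.7 at D10, 0.849 to 1.70 at D15 in the 3 with an Arg1 read, and 1.06 to 2.55 at D21, so 3 of the 4 D10 EAM hearts lay within the range of their controls. At D21 the ratios in EAM hearts were 0.14, 0.466, 2.62 and 0.558, with the ratio above 1 in replicate 3, the EAM heart nearest to the controls. These ratios come from the contrast that chose the genes and were not tested.

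RefSeq promoter sequences (GRCm38.p6) were at hand for 4 of the 10 members. They are shown because Acod1, Ass1 and Ch25h were higher together in D15 EAM hearts, with Odc1, which was not called, beside them. Each is the 250 bases before the RefSeq start, 5′ to 3′ on the strand of the gene, and capitals mark the motifs found.
Acod1, chr14:103046762-103047011, plus strand: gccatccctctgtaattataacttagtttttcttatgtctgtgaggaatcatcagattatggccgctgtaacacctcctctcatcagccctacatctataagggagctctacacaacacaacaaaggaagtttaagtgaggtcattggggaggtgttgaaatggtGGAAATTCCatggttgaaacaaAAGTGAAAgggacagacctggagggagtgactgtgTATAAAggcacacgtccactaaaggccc
Ch25h, chr19:34475149-34475398, minus strand: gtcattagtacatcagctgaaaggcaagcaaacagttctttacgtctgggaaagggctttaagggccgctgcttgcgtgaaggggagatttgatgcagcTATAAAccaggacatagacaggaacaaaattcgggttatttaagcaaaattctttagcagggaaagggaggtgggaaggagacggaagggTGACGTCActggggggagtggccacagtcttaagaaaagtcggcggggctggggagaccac
Ass1, chr2:31470020-31470269, plus strand: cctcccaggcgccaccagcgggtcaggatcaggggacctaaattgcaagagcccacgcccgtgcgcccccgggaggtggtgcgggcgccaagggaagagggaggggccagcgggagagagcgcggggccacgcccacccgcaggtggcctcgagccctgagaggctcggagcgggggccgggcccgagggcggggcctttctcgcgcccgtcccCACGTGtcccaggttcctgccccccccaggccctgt
Odc1, chr12:17544623-17544872, plus strand: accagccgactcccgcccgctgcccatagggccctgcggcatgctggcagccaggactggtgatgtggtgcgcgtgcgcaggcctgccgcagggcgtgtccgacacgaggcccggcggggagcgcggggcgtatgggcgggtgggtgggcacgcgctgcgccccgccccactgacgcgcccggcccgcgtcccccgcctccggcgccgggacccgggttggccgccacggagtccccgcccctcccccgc

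The 10 motifs were searched on both strands in the 300 bases that run from 250 before to 50 after the start, in these and in all 32851 promoters of the table. Acod1 held TATAAA, the TATA box, 28 bases before its start, a motif present in 13.6% of all promoters. It also held an NF-kB form, GGAANTTCC, 85 bases before the start, which 0.928% of promoters hold and which was added to the search after the sequences had been read. An interferon regulatory factor core, AANNGAAA, lay 63 bases before the start and is found in 23.9% of promoters. Ch25h held the CREB site TGACGTCA 61 bases before its start, found in 1.79% of promoters, and a TATAAA at 151 bases. Ass1 held the E-box CACGTG 36 bases before its start, found in 7.15%. The Odc1 window held none of the 10, and 80.0% of its 250 bases were G or C, beside 75.6% in Ass1, 50.4% in Ch25h and 44.4% in Acod1. The other motifs searched were the 10-base NF-kB consensus, in 4.51% of promoters, AP-1 (TGANTCA, 7.81%), the ISRE, which contains the core above (3.44%), GAS (TTCNNNGAA, 8.30%) and the STAT6 site (6.95%), and none was in these windows. A match is a run of letters and not a measured site.

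Ido1 encodes indoleamine dioxygenase, the first enzyme of tryptophan breakdown (chr8:24584136-24597009, minus strand). It was low throughout. Ido1 in D15 EAM hearts was at 2.83, 2.91, 2.28 and 2.82 CPM and in the D15 controls at 0.521, 0.531, 0.259 and 0.471 CPM, a log2 fold change of 2.64 (SE 0.22). Ido1 in D10 EAM hearts was at 3.01, 0.283, 1.45 and 0.317 CPM beside 0.198 to 0.307 CPM, so that replicate 1 was above every D15 EAM heart and replicate 2 within the control range. Ido1 in D21 EAM hearts was at 0.493, 1.09, 0.802 and 3.86 CPM beside 0.154 to 0.610 CPM, so that replicate 1 lay within the control range and replicate 4 held the highest level of Ido1 in any heart. Kynu encodes kynureninase, which acts further down the same pathway (chr2:43555329-43682715, plus strand), and had 0 to 2 reads in each of the 12 control hearts. Kynu in D15 EAM hearts was at 14.2, 7.56, 11.9 and 11.3 CPM. Their summed 1132 reads against 4 in the controls gave a ratio of 200.5 (exact 95% counting interval 78.1 to 737), and the fitted log2 fold change was 7.56 (SE 0.40). Kynu was at 5.57, 2.83, 0.468 and 9.82 CPM in D21 EAM hearts and at 7.42, 0.227, 1.06 and 0.0528 CPM in D10 EAM hearts. It was above the controls in every D21 EAM heart but could not be fitted at D10 and D21, where fewer than 4 hearts had 10 reads.

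Ch25h, cholesterol 25-hydroxylase (chr19:34473778-34475164, minus strand), was the other member with all D10 EAM hearts above their controls. They held 32.4, 6.06, 7.29 and 3.33 CPM beside 2.91, 2.72, 1.91 and 1.59 CPM, a log2 fold change of 2.42 (SE 0.69). The lowest EAM heart was close to the highest control. Ch25h in D15 EAM hearts was at 27.2, 16.4, 28.9 and 29.9 CPM beside 0.531 to 1.30 CPM, a log2 fold change of 4.96 (SE 0.29). D10 EAM replicate 1 held the highest Ch25h level of all 24 hearts. Ch25h in D21 EAM hearts was at 7.29, 8.50, 1.94 and 26.2 CPM beside 0.788 to 1.43 CPM, with none inside the control range and a log2 fold change of 3.36 (SE 0.72).

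D10 EAM replicate 1 held the highest D10 level of every member. Its macrophage and monocyte markers summed to 3625 CPM against 1206 to 2067 CPM in the other D10 EAM hearts, its neutrophil markers to 899.6 CPM, and its Ptprc, the CD45 gene, to 194 CPM against 27.7 to 56.7 CPM. Without it, the log2 fold changes at D10 were 1.0 for Arg2, 1.05 for Ass1, 0.19 for Slc7a2 and 1.26 for Ch25h. At D21, replicate 3 was the lowest EAM heart for Arg1, Arg2, Ass1, Slc7a2, Odc1, Acod1, Kynu and Ch25h, and its macrophage markers, at 1655 CPM, were the lowest of that group. Replicate 4 was the highest for all 10, and without it the log2 fold changes at D21 were 3.30 for Ass1, 5.29 for Acod1, 2.46 for Ch25h and 1.03 for Ido1, the last beside 2.03 with it.

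The difference of the EAM effect between days was fitted over all 24 hearts. Since it is built from the values that chose the members, its calls for them are descriptions and not tests. From D10 to D15, 2 of 10 members passed both limits, Nos2 with a log2 difference of 2.40 (SE 0.56) and Slc7a2 with 3.39 (SE 0.69), beside 12.7% of 16318 genes, 5.38% higher and 7.35% lower. With total counts as scaling, 1017 genes were higher and 831 lower, against 878 and 1199 with TMM. Without D10 EAM replicate 1, 6 members passed them, and so did 23% of all genes, 12.3% higher. Arg1, with 5.0 (SE 4.18), and Acod1, with 4.12 (SE 2.12), had larger differences and larger SE values. For Arg1, with few control reads, the SE was 0.65 at D15 and 1.53 at D21 in the fits of single days, so it depends on the fit. From D15 to D21, Nos2 passed them with a difference of -2.41 (SE 0.56), beside 3.66% of all genes, 2.74% higher and 0.919% lower (with total counts, 243 genes higher and 229 lower, against 447 and 150 with TMM). With the replicate number as a block, Nos2 still passed them, with 51 genes higher and 63 lower, or 0.699% of all genes. Leaving out single libraries moved it between -3.12 and -2.19 and brought it under the limits for 6 of them, which were EAM replicates 2 and 4 and control replicate 2 of D15 and EAM replicates 2 and 3 and control replicate 3 of D21. The other members differed by between -3.45 (Arg1, SE 3.72) and 0.13 (Odc1, SE 0.18). Both differences share the D15 hearts, and the second also spans the change of library code.

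Set against the reads of the 15 macrophage and monocyte markers of the same heart, the members separated. Arg1 had 52.6, 117, 45.4 and 63.1 reads per 1000 marker reads in the D15 EAM hearts and at most 0.352 in any control heart. It had 22.0, 11.0, 0.484 and 26.8 in the D21 EAM hearts, so all 4 were below every D15 EAM heart although the marker level of replicates 1 and 4 was within the D15 range. Acod1 had 29.5, 25.8, 44.5 and 31.8 reads per 1000 at D15, 40.9 in D10 EAM replicate 1, and 3.61, 6.04, 1.49 and 17.6 at D21. The D10 heart was thus within the D15 range for Acod1 but, at 22.9, below it for Arg1. Nos2 had between 24.5 and 45.9 reads per 1000 in D15 EAM hearts, which overlapped the 28.6 to 42.2 of D15 controls. At D21 Nos2 had 3.78, 10.9, 13.8 and 17.7 reads per 1000 in EAM hearts, all below the 28.8 to 59.3 of controls. Odc1 was also lower on this scale, with 19.5 to 28.7 at D15 EAM against 110 to 148 in controls. Ass1 had 28.9 to 36.2 at D15 EAM against 3.78 to 4.80 in controls, and Slc7a2 23.4 to 44.5 against 10.3 to 12.2. Genes that other cells also express, as Nos2 and Odc1 were measured in control hearts, carry those reads on this scale, and the source of the reads was not tested.

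**Figure D3:**
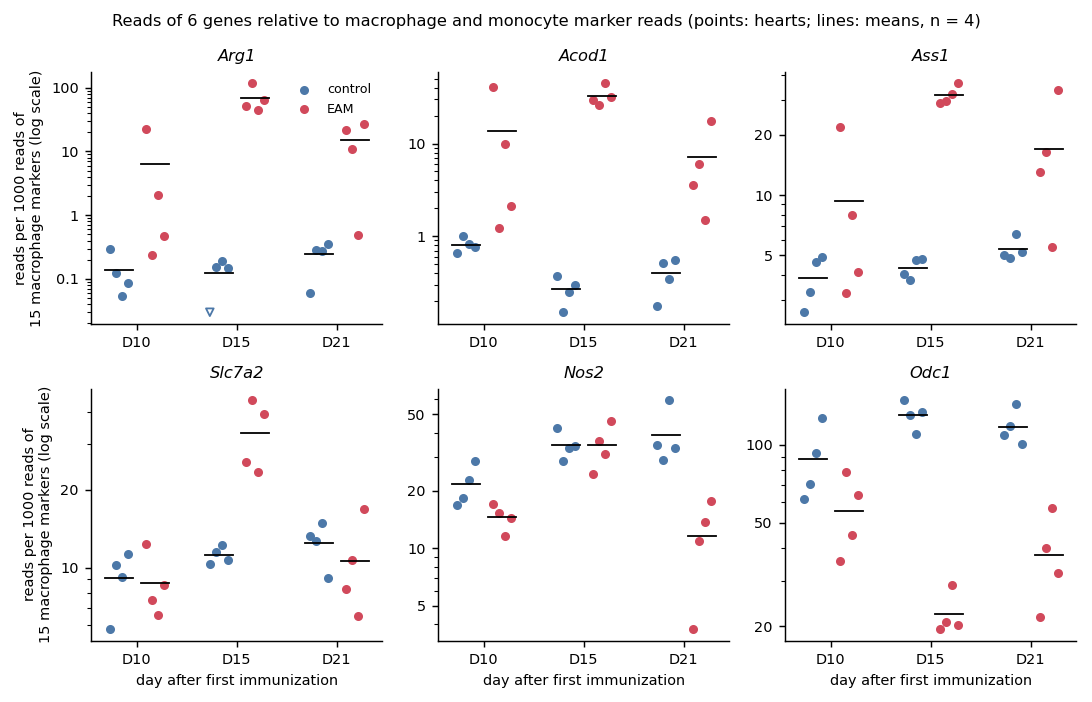
Reads of 6 genes per 1000 reads of the 15 macrophage and monocyte markers in each heart, on log axes with their own ranges. Points are hearts, lines are means of 4 and the open triangle is a heart with 0 reads. Arg1, Acod1 and Ass1 are higher in D15 EAM hearts than in controls, Nos2 overlaps at D15 and is lower in D21 EAM hearts, and Odc1 is lower at D15 and D21.

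Control hearts were compared between days, a contrast that the choice of genes did not use although the same hearts enter the comparisons above. Of the members, 7 passed the filter in the 12 hearts. Acod1 was lower at D15 and D21 than at D10, with 1.03, 1.23, 0.842 and 0.595 CPM at D10, the D15 values given above, and 0.153, 0.432, 0.219 and 0.563 CPM at D21. No D10 control overlapped those of the later days. The log2 difference was -2.13 (SE 0.40, adjusted p = 0.0245) for D15 and -1.44 (SE 0.35, adjusted p = 0.0217) for D21. Ch25h differed in the same direction, by -1.43 (SE 0.29, adjusted p = 0.0313) and -1.06 (SE 0.27, adjusted p = 0.0270), again with no overlap. Arg2 differed by -1.09 at D15 (SE 0.23, adjusted p = 0.0359) and by -0.52 at D21 (SE 0.22, adjusted p = 0.131), where 1 heart lay within the D10 range. Nos2 was at a higher level at D21 than at D10, by 0.41 (SE 0.12, adjusted p = 0.0418), with overlapping hearts.

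None of these differences passed an FDR of 0.01 in edgeR's quasi-likelihood test. From D10 to D15, 0 of 7 members were called beside 0.0718% of 15311 genes, and 3 had unadjusted p under 0.05 beside 2575 of all genes. DESeq2 called 2, the likelihood ratio test 3 and limma-voom 0, beside 0.921%, 1.18% and 0% of all genes. From D10 to D21, 0 were called beside 0.96% of all genes (0.607% higher), and 4 had unadjusted p under 0.05 beside 4309 of all genes. The likelihood ratio test called 2, DESeq2 0 and limma-voom 0, beside 1.92%, 1.67% and 0.477% of all genes. From D15 to D21, 0 were called beside 0% of all genes, 2 had unadjusted p under 0.05 beside 1491 of all genes, and the other 3 tests called 0 beside 0%. The 3 comparisons share hearts. Every D15 control was below every D10 control for 3 members and above for 0, beside 5.62% and 3.5% of all genes. Every D21 control was below every D10 control for Acod1, Ch25h and Kynu and above for 0 members, beside 7.74% and 9.13% of all genes; Kynu had 1 read in each of these hearts, so its order is that of the library sizes. Arg2 and Ass1 were higher in every D21 control than in every D15 control, beside 2.83% of all genes. Over the same hearts, the macrophage and monocyte markers summed to between 778 and 1559 CPM at D10 and between 707 and 821 CPM at D15, and the neutrophil markers to between 145 and 282 CPM and between 21.6 and 97.2 CPM. At D21 the sums were 628 to 1018 CPM and 13.7 to 130 CPM, so the neutrophil markers of every later control heart were below those of every D10 control. Their part in the difference was not tested. Acod1 had 0.659 to 1.01 reads per 1000 macrophage marker reads at D10 and 0.151 to 0.369 at D15, without overlap. At D21 it had 0.178 to 0.553, also below D10. Ch25h did not overlap D10 on this scale at D15 or D21, with 1.86 to 2.22 at D10, 0.681 to 1.84 at D15 and 1.14 to 1.42 at D21, while Arg2 overlapped, with 1.03 to 1.70 at D10, 0.681 to 1.03 at D15 and 0.965 to 1.41 at D21. Per 1000 neutrophil marker reads Acod1 had 2.99 to 6.38 at D10 and 1.21 to 12.1 at D15, and the days overlapped, as they did for Ch25h and Arg2 and at D21.

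**Figure D4:**
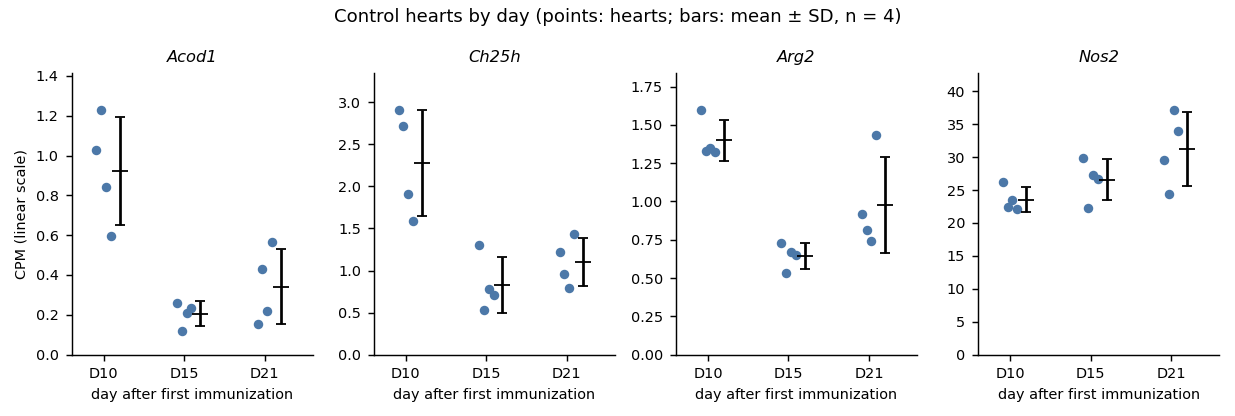
CPM of 4 members in control hearts by day, on linear axes from 0. Points are hearts and bars are the mean and SD of 4. The D10 hearts lie above all D15 hearts for Acod1, Ch25h and Arg2, while the Nos2 ranges overlap.

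The other genes of these pathways were followed in 9 lists grouped by function, which held 164 genes, 162 of them matched. The lists were drawn up with earlier results of these data known. Their counts and adjusted p-values are therefore descriptions and not independent tests. All their changes below are log2 fold changes of EAM over control. At D15, 66 of the 145 tested were called higher and 18 lower, beside 18.1% and 12.9% of all genes and a median of 0.02. In the arginine list 8 of 17 were higher and 2 lower, with a median log2 fold change of 0.37. Gatm, the first enzyme of creatine synthesis, which uses arginine, rose by 3.66 (SE 0.11, adjusted p = 1.43e-08), from 18.2 ± 1.56 to 224 ± 24.2 CPM (SD, n = 4 each). Pycr1, which makes proline, rose by 2.01, and Azin2, an antizyme inhibitor, by 1.86. Asl, argininosuccinate lyase and the partner of Ass1, rose from 5.01 ± 1.40 to 17.5 ± 2.03 CPM, and Prodh, which degrades proline, fell by 1.20. In the list of nitric oxide synthases and tetrahydrobiopterin, the cofactor of Nos2, 0 of 11 were higher and 2 lower, and the median was -0.51. Gchfr, a regulator of cofactor synthesis, fell by 1.98 (adjusted p = 0.000309) and Spr, its last enzyme, by 1.04 (adjusted p = 1.78e-05). Gch1, the first enzyme of that synthesis, had a value of 0.62, under the 2-fold limit (a gene picked once its values were known).

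Among polyamine genes, 4 of 14 were higher and 1 lower, with a median of 0.17. Sat1, which acetylates polyamines for breakdown or export, rose by 1.89 (adjusted p = 3.20e-06), Atp13a2, a polyamine transporter, by 1.70 and Srm, spermidine synthase, by 1.36, while Sms, spermine synthase, fell by 1.09. In the list of itaconate and its targets, 6 of 21 were higher and 8 lower, with a median of -0.14. The largest rises were those of Hmox1, heme oxygenase (3.71, adjusted p = 1.24e-06), Atf3, a stress-induced transcription factor (2.98), and Nfkbiz, a regulator of NF-kB targets (2.28). The largest falls were those of Idh2 (-1.34), Clybl (-1.32) and Sdha (-1.28), which encode mitochondrial enzymes, in hearts where the cardiomyocyte markers were also lower. In the list of tryptophan, kynurenine and NAD, 6 of 20 were higher and 5 lower, with a median of 0.42. Kmo, kynurenine monooxygenase, which acts before Kynu, rose from 1.97 ± 0.109 to 6.97 ± 1.89 CPM. Cyp1b1, a target of the aryl hydrocarbon receptor, rose by 2.81 and Slc7a8, an amino acid transporter, by 2.76. Kyat1 and Kyat3, which take kynurenine to kynurenic acid, fell by 1.57 and 1.29, and Nmnat1 fell by 1.36.

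In the oxysterol list, 9 of 19 were higher and 0 lower, with a median of 0.85. Cyp7b1, which acts on 25-hydroxycholesterol, rose by 4.37 (SE 0.18, adjusted p = 9.04e-08), from 1.06 ± 0.152 to 21.3 ± 3.90 CPM. Soat1, which esterifies cholesterol, rose by 3.26 and Abcg1, a sterol exporter, by 2.67. Of the inducing cytokines, receptors and factors, 17 of 23 were higher and 0 lower, with a median of 2.29. Ifng, interferon gamma, rose from 0.0277 ± 0.0321 to 4.61 ± 1.70 CPM, Il1b by 5.95 and Batf2 by 4.10. Companions of classical activation were called higher in 9 of 9 genes, led by Il6 (7.60), Cxcl9 (6.94) and Fpr2 (6.02). Companions of alternative activation were called higher in 7 of 11, led by Pdcd1lg2 (10.79), Ccl17 (7.97) and Chil3 (7.90). Members of both lists were thus higher in the same hearts.

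**Figure D5:**
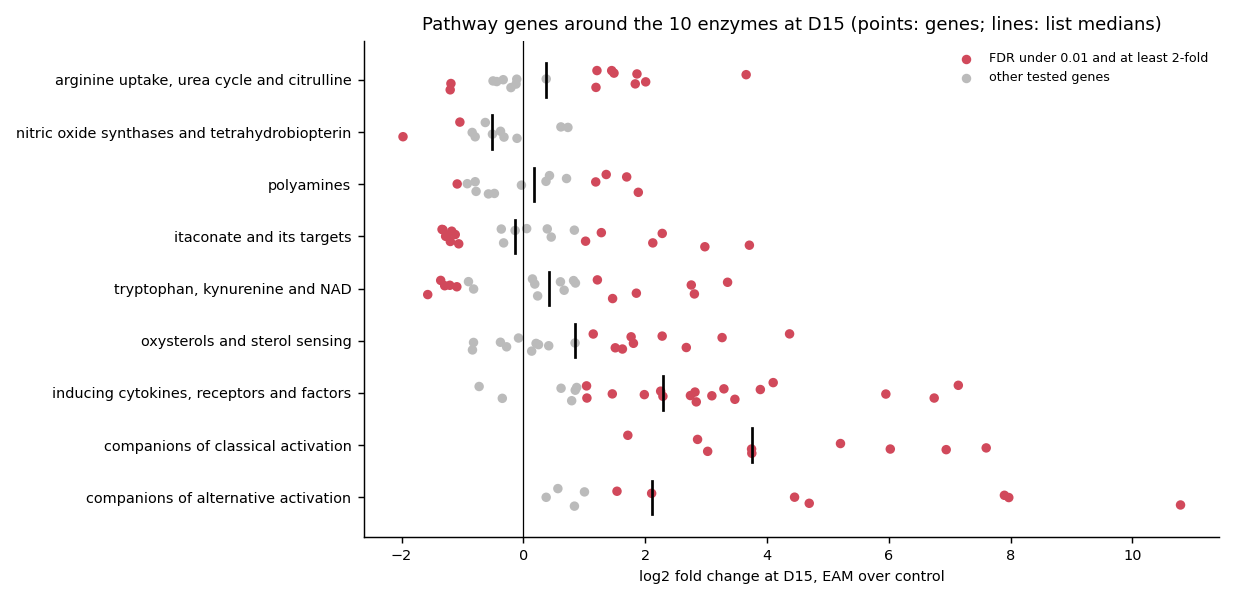
Log2 fold change of EAM over control hearts at D15 for the tested genes of the 9 lists. Points are genes, coloured where FDR is under 0.01 and the change at least 2-fold, and lines are list medians, which run from -0.51 for nitric oxide synthases and tetrahydrobiopterin to 3.75 for companions of classical activation.

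At D10, 0 of 139 list genes were called in edgeR's quasi-likelihood test, beside 0% of all genes. In that test 43 had an unadjusted p under 0.05, beside 2292 of all 15029 genes. DESeq2 called 2 and the likelihood ratio test 1, beside 0.346% and 0.313% of all genes. At D21, 20 of 141 were called, all higher, beside 4.13% of all genes, and leaving out any 1 control heart or EAM replicate 1 or 2 brought this to 0, while calls over all genes fell from 5.29% to between 0% and 0.265%. Without EAM replicate 3 it was 41 and without replicate 4 it was 11. The 20 included Asl (1.56, adjusted p = 0.00582), Sat1 (1.49), Hmox1 (2.66), Slc13a3 (1.67), a carrier of dicarboxylates, and Kmo (1.87, adjusted p = 0.00558). Also called were Cyp7b1 (3.43), Soat1 (2.06), Abcg1 (1.89), Il1b (4.04), Batf2 (2.79) and Irf8 (2.59). Of the companions, Cxcl9 (5.45), Fpr2 (4.16) and Gpr18 (3.84) were called in the classical list, and Pdcd1lg2 (8.03), Chil3 (4.49) and Fn1 (2.69) in the alternative list. No list gene was called lower at D21 in the quasi-likelihood test, while DESeq2 and the likelihood ratio test each called 1 lower, in the alternative list. With the replicate number as a block, which was taken as a pairing at D21, 16 were called: 6 of the 20 lost their call, which were Asl, Hmox1, Slc13a3, Batf2, Gpr18 and Fn1, with adjusted p from 0.0111 to 0.0144, and Atf3 and Tlr2 gained one (genes named after their values were known). The count of called members at D21 moved likewise, from 4 to 0 without any 1 control heart or EAM replicate 1 or 2, to 5 without EAM replicate 3 and to 2 without replicate 4, where 13.3% and 2.88% of all genes were called.

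For each member, the 3 genes with the nearest pattern over the 24 hearts were found by the root mean square difference of mean-centred log2(CPM + 1) among 14207 genes. Arg1 was nearest to F10, which encodes coagulation factor X (0.84), Spp1, osteopontin (1.01), and Il1rn, the interleukin 1 receptor antagonist (1.02). Acod1 was nearest to Cxcl9 (0.54), Il1rn (0.55) and F10 (0.55), so it shared 2 of its 3 with Arg1. Nos2 was nearest to Cd1d1 (0.38), Pag1 (0.42) and Malt1 (0.43), Ass1 to Pdcd1lg2 (0.22), AA467197 (0.27) and Ubd (0.29), and Slc7a2 to Fcrlb (0.27), Tnfsf11 (0.28) and Aldoc (0.35). Arg2 was nearest to Emb (0.21) and Slc16a3 (0.25), a lactate transporter, and the third gene has near-identical copies and is not reported. Ch25h was nearest to Marcksl1 (0.31), Slc2a6 (0.33) and Tlr2 (0.36), and Kynu to Gzmb (0.20), granzyme B, Gatm (0.21) and Slamf6 (0.22). Ido1 was nearest to Parp10 (0.21), Parp12 (0.22) and E2f8 (0.23), and Odc1 to Psmd14 (0.09), Hnrnpab (0.10) and Dnaaf2 (0.10), genes that varied as little as it did. The differences are small where a member varied little, so they are not compared between members.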

How the data were processed

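RNA from 24 hearts was sequenced as read pairs from a directional kit. Per the labels and the study's methods, the authors aligned the pairs to GRCm38 with HISAT2 2.0.4, removed duplicates with Picard and deposited raw counts per Ensembl gene from featureCounts, pooling no replicates. The strand setting of the counting was not given in the sources used here. Removing duplicates compresses the counts of very abundant genes. The 92 spike-in rows held 0 reads and were left out.

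Counts were compared in R 4.3.3 with edgeR 4.0.16 (TMM scaling, quasi-likelihood test), for each day on its 8 samples and for day differences on all 24 or the 12 controls, over genes with at least 10 reads in 4 samples, with limits of FDR under 0.01 and at least 2-fold. CPM uses TMM-scaled totals. SE is the absolute log2 fold change divided by the square root of the F statistic of the quasi-likelihood test. Alternatives were DESeq2 1.42.0, limma-voom (limma 3.58.1), the likelihood ratio test, other scaling, filters and limits, a fit of all samples, a replicate block and leaving out each library. Steps were tested on simulated data. Exact intervals of ratios of reads cover counting error only, since reads are not independent molecules. Tables were made in Python 3.11.15 with pandas 2.3.3, and coordinates are those of GRCm38.

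The members and lists were chosen with earlier results of these data known. Genes named besides the members are, for each list and day, up to 3 called genes in each direction with the largest change, a mean of 1 CPM or more and EAM and control hearts apart, the 3 nearest genes of each member, and the highest and unread markers of each cell list. Asl, named by its D21 value, is also given at D15, and Gch1 was named after its values were seen. Of the pathway genes, 2 of 164 matched no symbol. What the replicate numbers mark is not labelled, and p-values measure the spread between these hearts. Deviations of same-numbered EAM and control hearts correlated over 0.1 in 4 of 4 pairs at D21 (0.101 to 0.307). They did so in 2 of 4 at D10 (up to 0.407) and 0 of 4 at D15. The numbers were taken as pairs at D21 alone, on this correlation. D21 EAM replicate 1 correlated more with control replicate 4 (0.238) than with control replicate 1 (0.101). The pairing is thus an assumption drawn from these same data.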

Additional observations from a re-analysis of the deposited data

Results flagged for a closer look

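Chance alone marks about 5% of groups of 4 as holding a heart far from the rest by Dixon's test, and 11 of the 60 groups of a member, day and treatment were marked here. Of these, 8 were the same heart, D10 EAM replicate 1, which held 82.9 CPM of Arg1, 29.6 of Arg2, 61.5 of Nos2, 79.4 of Ass1, 44.7 of Slc7a2, 148 of Acod1, 7.42 of Kynu and 32.4 CPM of Ch25h. The other 3 were Nos2 in D21 EAM replicate 4, at 88.6 CPM, Ido1 in D15 EAM replicate 3, at 2.28 CPM and the low heart of its group, and Arg2 in D10 control replicate 1, at 1.60 CPM in a group that spans little. The marker levels of D10 EAM replicate 1 are given in the report, and their part in its values was not tested.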

How the results depend on the processing

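Of 1474 values of single members under alternatives, 1381 kept their direction and their side of the limits, 34 lost a call, 48 gained one and 11 changed sign. The sign changes were all of small values. The D21 minus D15 difference of Odc1 was -0.0148 on the log2 scale with total counts. With libraries left out it ranged from -0.0305 to 0.233, Nos2 at D10 from -0.20 to 0.56, Odc1 at D10 from -0.0545 to 0.148, and Nos2 at D21 from -0.31 to 0.66. Between control hearts at D21 and D10, with libraries left out, Ass1 ranged from -0.00652 to 0.159, Slc7a2 from -0.0215 to 0.167 and Odc1 from -0.00913 to 0.0627. The number of members called at D10 was 1 with DESeq2 and the likelihood ratio test, beside 0.346% and 0.313% of all genes. At D21 it was 7 in the fit of all 24 samples and 0 with limma-voom, beside 12% and 1.41% of all genes. With a library left out it was from 0 to 5, beside 0% to 13.3%. For D15 minus D10 it was 4 with DESeq2, 5 with the likelihood ratio test, 5 at FDR 0.05 without a fold limit, beside 15.8%, 16.4% and 46.3% of all genes, and 2 to 6 with a library left out. For D21 minus D15 it was 2 under those 3 settings, beside 5.19%, 5.49% and 28.2%, and 0 to 2 with a library left out. For control hearts at D15 it was 2, 3 and 3 under those settings, beside 0.921%, 1.18% and 2.04%, and at D21 the likelihood ratio test called 2 and FDR 0.05 gave 3, beside 1.92% and 11.2%. Pathway genes called numbered 2 with DESeq2 and 1 with the likelihood ratio test at D10, beside 0.346% and 0.313% of all genes. At D21 they numbered 36 with DESeq2 and 36 with the likelihood ratio test, beside 11.4% and 11.6% of all genes. They numbered 58 at FDR 0.05 and 1 with limma-voom, beside 32.3% and 1.41%. With a library left out they numbered 0 to 41, beside 0% to 13.3%. At D15, leaving out an EAM heart left 6 of 9 called members, because 3 then failed the filter. The causes of the other changes were not tested.

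With the replicate number as a block, the D15 minus D10 difference passed both limits for 5 members in place of 2. It did so for 14.7% of all genes in place of 12.7%, although the numbers were not taken as pairs there. At D21, where they were taken as pairs, the block ended the call of Ass1 and changed no other member's call, while pathway genes called fell from 20 to 16. Depth limits Arg1, Kynu and Ido1 in control hearts, where a few reads set the ratio.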

Other observations

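Markers of other cell types differed in how far they changed at D15, where 18.1% of all genes were called higher and 12.9% lower. T cell markers, led by Cd4, summed to between 3.36 and 6.28 CPM in control hearts and between 71.4 and 98.7 CPM in D15 EAM hearts, with 10 of 10 called higher. Fibroblast markers, led by Col1a1, summed to between 1310 and 1982 CPM in control and between 3199 and 6499 CPM in D15 EAM hearts, with 1 of 6 called higher and a median log2 fold change of 0.36. Of 9 dendritic cell markers, led by Fscn1, 4 were called higher, and 0 of 7 endothelial markers, led by Pecam1, were higher and 1 lower. B cell markers, led by Cd79b, were at no more than 13.1 CPM and eosinophil markers, led by Siglecf, at no more than 5.85 CPM in any heart, with no read of Epx in the 12 control and the 4 D21 EAM hearts.

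Arg1, Ass1 and Kynu are also liver genes. The 8 hepatocyte markers, led by Cyp2e1, summed to between 10.4 and 15.7 CPM in D15 EAM hearts, within the 4.69 to 22.6 CPM of control hearts, and to between 0.386 and 3.98 CPM in D21 EAM hearts. Alb and Apoa1 had no read in the D15 EAM hearts, and Alb none in the D21 EAM hearts.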
